A study of Mus musculus with 2 samples.

Results

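The spots described here are the capture spots of mouse brain sections that were richest in transcripts of the 3 genes that mark cholinergic neurons: Slc18a3, which encodes the vesicular acetylcholine transporter, Slc5a7, which encodes the high-affinity choline transporter, and Chat, which encodes choline acetyltransferase. Each spot was given the summed UMIs (unique molecular identifiers, 1 per captured transcript) of these genes per 10000 UMIs of the spot, and the 40 spots with the highest value in each section were taken. They are 80 of the 5561 spots with at least 500 UMIs, 40 of 3030 in section 1 and 40 of 2531 in section 2. The measured values of the 3 genes therefore chose the spots, and their levels are given as a description, with no test.

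RNA was captured from fresh-frozen brain sections, 10 µm thick, of wild-type C57BL/6 mice on 10x Visium slides, on which barcoded spots bind polyadenylated RNA. Both sections carry the label ZT12 (zeitgeber time 12) and the genotype wild type, and they are labelled replicates 1 and 2 of 1 group. The labels give no age and do not say whether the sections come from separate animals, so the spread between them may be technical. There is no treatment, mutant or second time point, and the comparison is between the chosen spots and all other spots of the same section. A spot holds parts of several cells, so its RNA mixes cell types, and fewer cells of a type cannot be told apart from less RNA per cell.

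Cholinergic neurons take up choline with the Slc5a7 product, join it to acetyl-CoA with the Chat enzyme and load the acetylcholine into vesicles with the Slc18a3 product. In the brain they are large interneurons of the striatum, projection neurons of the basal forebrain, neurons of the medial habenula, and neurons of the pons and medulla that include the cranial motor nuclei. Forebrain cholinergic neurons are known for the homeodomain factors Lhx8, Gbx1 and Isl1 and for the neurotrophin receptor Ngfr, whereas cranial motor neurons are known for Tbx20, Isl1 and Prph.

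Slc18a3 lies inside the Chat gene on the same strand in RefSeq's annotation of GRCm38.p6 (Slc18a3 at chr14:32462437-32464850, Chat at chr14:32408203-32465909), so the division of UMIs between these overlapping genes depends on the authors' counting and is uncertain. Slc5a7 is on another chromosome (chr17:54273590-54299038). Slc10a4, the gene with the strongest statistical support in the comparison below, is at chr5:73006904-73012955 and encodes a synaptic vesicle protein of cholinergic and monoaminergic neurons. The promoter windows of these 4 genes are shown because their transcripts shared spots. Each runs from 250 bases before to 50 bases after the annotated start, 5′ to 3′ on the gene's strand, and the capitals mark CpG dinucleotides.
Slc18a3 (chr14:32464801-32465100, minus strand): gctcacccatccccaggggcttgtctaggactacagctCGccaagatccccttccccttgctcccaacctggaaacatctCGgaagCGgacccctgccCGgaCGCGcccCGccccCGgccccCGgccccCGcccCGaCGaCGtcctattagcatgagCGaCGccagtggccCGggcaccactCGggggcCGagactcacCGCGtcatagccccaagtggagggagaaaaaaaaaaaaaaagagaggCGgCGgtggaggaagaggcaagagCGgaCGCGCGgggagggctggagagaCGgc
Chat (chr14:32465860-32466159, minus strand): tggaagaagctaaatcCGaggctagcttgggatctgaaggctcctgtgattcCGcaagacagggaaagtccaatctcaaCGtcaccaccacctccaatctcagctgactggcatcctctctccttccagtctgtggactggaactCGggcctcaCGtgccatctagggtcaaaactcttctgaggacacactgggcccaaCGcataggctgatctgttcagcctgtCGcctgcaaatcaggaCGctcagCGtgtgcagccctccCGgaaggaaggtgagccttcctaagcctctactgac
Slc5a7 (chr17:54298985-54299284, minus strand): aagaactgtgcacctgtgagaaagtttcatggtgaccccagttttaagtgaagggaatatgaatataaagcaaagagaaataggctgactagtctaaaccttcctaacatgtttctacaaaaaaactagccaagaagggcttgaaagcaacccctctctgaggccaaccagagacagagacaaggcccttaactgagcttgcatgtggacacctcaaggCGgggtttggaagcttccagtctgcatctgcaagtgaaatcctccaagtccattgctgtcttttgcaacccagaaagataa
Slc10a4 (chr5:73006654-73006953, plus strand): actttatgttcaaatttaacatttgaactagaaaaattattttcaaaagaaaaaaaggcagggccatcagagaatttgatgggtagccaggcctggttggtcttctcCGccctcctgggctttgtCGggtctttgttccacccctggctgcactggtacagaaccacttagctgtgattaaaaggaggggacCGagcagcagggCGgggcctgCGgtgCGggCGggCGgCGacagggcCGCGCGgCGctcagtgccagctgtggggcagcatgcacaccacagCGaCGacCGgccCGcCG
The windows were unlike in base composition. The Slc18a3 window held 27 CpG and was 67.0% G or C, and the Slc10a4 window held 18 CpG at 57.3%. The Chat window held 10 CpG at 55.7%, and the Slc5a7 window held 1 CpG at 44.7%, against medians of 7 CpG and 52.7% over the 32851 mouse promoter windows of the table. The letters TAATTA, a core bound by many homeodomain factors, were searched on both strands (the motif is its own reverse complement) and were in 0 of these 4 windows. Of all windows, 5.29% held them.

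The marker transcripts were sparse. In section 1 the kept spots held 118 UMIs of Slc18a3, 167 of Slc5a7 and 10 of Chat, and in section 2 they held 315, 324 and 23. A UMI of any of the 3 genes was found in 216 spots of section 1 (7.13%) and 447 spots of section 2 (17.7%). The chosen spots carried 106 of the 295 marker UMIs of section 1 (35.9%) and 170 of the 662 of section 2 (25.7%). Chat, the gene most often used to name these neurons, was seen in 2 chosen spots of section 1 and 8 of section 2, so the choice rested mostly on the transporters.

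In section 1 a chosen spot held 1 to 9 marker UMIs (median 2), and in section 2 it held 1 to 10 (median 4). The value per 10000 UMIs had a median of 2.42 in section 1 and 2.09 in section 2. The highest value of section 1, 19.19, came from 1 UMI in a spot of 521 UMIs, whereas the highest of section 2, 5.15, came from 8 UMIs in a spot of 15547. The last spot taken in section 1 had 1 marker UMI in 7642 (1.31) and the next one, left out, 1 in 8083 (1.24). In section 2 these were 3 UMIs in 19338 (1.551) and 3 in 19378 (1.548). The border of the choice thus separated spots that differed by less than 1 UMI.

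Of the chosen spots, 10 in section 1 and 2 in section 2 had a single marker UMI, and 17 and 33 had at least 3. Only 2 spots of section 1 and 11 of section 2 with at least 3 marker UMIs were not taken. Detection of more than 1 of the genes was common, with 2 genes in 21 and 26 chosen spots and all 3 in 1 and 5. The median total was 9685 UMIs in the chosen spots against 18217.5 in the others in section 1, and 17469.5 against 21592 in section 2. The spots with 1 marker UMI were shallower still, with medians of 6091.5 and 5293.

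**Figure D1:**
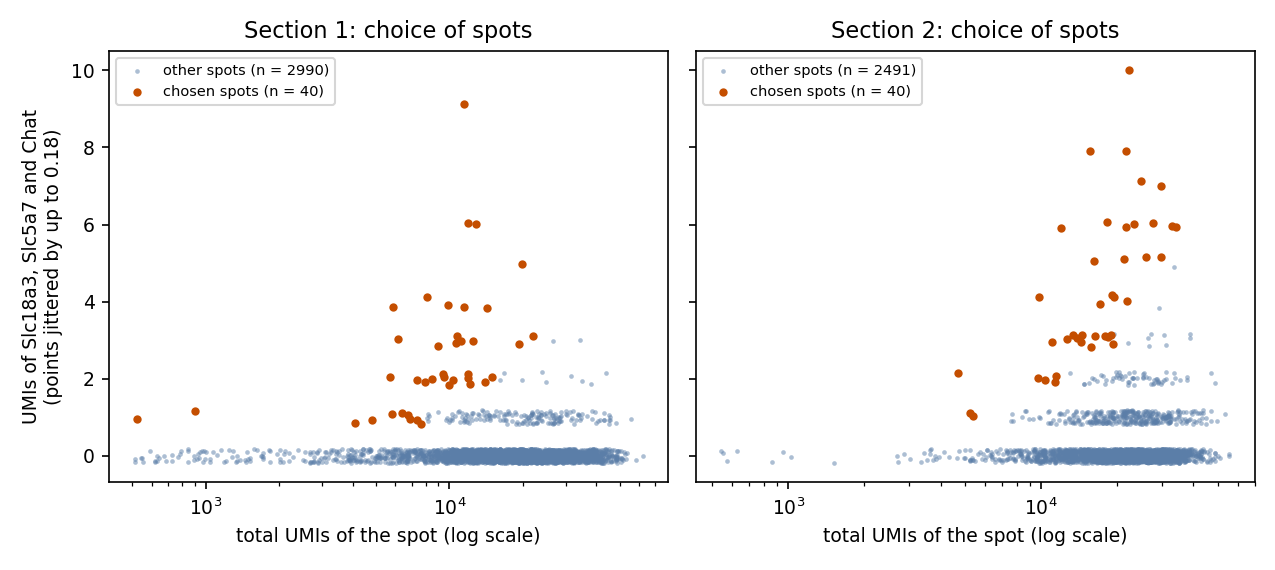
Marker UMIs of each kept spot (vertical axis, jittered) against its total UMIs (horizontal axis, log scale) in section 1 (left) and section 2 (right), with the 40 chosen spots of each section in orange and the 2990 and 2491 other spots in blue. Most chosen spots of section 2 hold at least 3 marker UMIs, whereas 10 chosen spots of section 1 hold 1, on totals of 7642 UMIs or fewer.

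Each marker was also tested on 40 spots per section chosen by the other 2 genes, which leaves the tested marker out of the choice. These sets differ from the chosen spots: 29 and 26 spots were shared when Slc18a3 was left out, and 26 and 25 when Slc5a7 was. Slc18a3 and Slc5a7 were both higher in such sets as a whole, and Chat was too sparse to call. Many single spots lacked the left-out marker. Slc18a3 had a UMI in 18 and 22 of the 40 (2.58% and 9.35% of the other spots). Slc5a7 had one in 18 and 19 (4.01% and 9.35%). Slc18a3 was at 82.5 CPM (counts per 1000000 summed UMIs) in the 40 spots so chosen in section 1 against 1.46 in the other spots, and at 62.2 against 4.95 in section 2. Its log2 fold change was 4.49 ± 0.32 (SE; 2 sections; edgeR adjusted p = 4.36e-41), and without the term for the section the adjusted p was 0.309. Slc5a7 was at 70.0 against 2.39 CPM and at 63.9 against 5.13 CPM, with a log2 fold change of 4.12 ± 0.32 (edgeR adjusted p = 5.9e-33). Chat had 1 UMI in the spots so chosen of section 1 and 7 in those of section 2, and its log2 fold change of 4.85 ± 1.66 did not pass (edgeR adjusted p = 0.188).

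Summed counts of the chosen spots were then compared with those of all other spots in both sections together, with a term for the section. A gene was called when its adjusted p was under 0.05 and its change at least 2-fold. Of 15758 tested genes, the 3 markers not among them, 29 were called higher (0.184%) and 15 lower (0.0952%). Of these 44 genes, 41 had the same sign in both sections. Without the term for the section, edgeR called 3 higher (Slc10a4, Acly and Ngfr) and 0 lower, with 126 and 210 at an unadjusted p under 0.05 and at least 2-fold. The fit has 4 sums and 1 residual degree of freedom, and its spread was estimated over all genes together. A gene's own difference between the sections therefore hardly entered its p-value.

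Genes that serve acetylcholine besides the markers were led by Slc10a4. It was at 91.8 CPM in the chosen spots of section 1 (36 UMIs in 18 of 40 spots) against 4.24 in the others, and at 131 CPM in section 2 (93 UMIs in 26 spots) against 7.16. Among the other spots, 6.42% and 12.9% had a UMI. In both sections the 95% Poisson intervals of the summed levels were apart, and the log2 fold change was 4.27 ± 0.21 (edgeR adjusted p = 9.99e-86). It was close to equal in the sections, at 4.38 and 4.19.

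The enzyme and carrier that supply acetyl-CoA rose as well. Acly, the ATP-citrate lyase that splits citrate into acetyl-CoA in the cytosol, was at 406 CPM against 133 in section 1 and at 421 against 142 in section 2 (log2 fold change 1.58 ± 0.11). Slc25a1, the mitochondrial citrate carrier, was at 112 against 48.2 and at 148 against 58.6 CPM (1.29 ± 0.15). Ache, the acetylcholinesterase that ends the transmitter's action, was at 204 against 86.4 and at 247 against 106 CPM (1.22 ± 0.12). Each of these genes was also detected in most spots outside the chosen set, Acly in 84.7% and 91.0% of them, so they differ in level rather than in presence. Ufsp1, a protease gene that starts 203 bases after the annotated end of Ache on the same strand, was higher too (1.35 ± 0.28). Whether reads from beyond the end of Ache were counted there was not tested.

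Of the 11 listed genes for acetylcholine breakdown, choline supply and vesicles, 4 were called higher (Slc10a4, Acly, Ache and Sv2c, a synaptic vesicle protein) and 0 lower, with a median log2 fold change of 0.56 against -0.05 over all tested genes. The other 7 did not pass. The choline transporter-like gene Slc44a1 was at 115 against 117 CPM in section 1 and at 118 against 103 in section 2. Choline kinase alpha, Chka, was at 66.3 against 57.5 and at 60.6 against 54.3. Prima1, which anchors acetylcholinesterase in the membrane, had 3 and 12 UMIs in the chosen spots (log2 fold change 1.70 ± 0.53, edgeR adjusted p = 0.102).

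**Figure D2:**
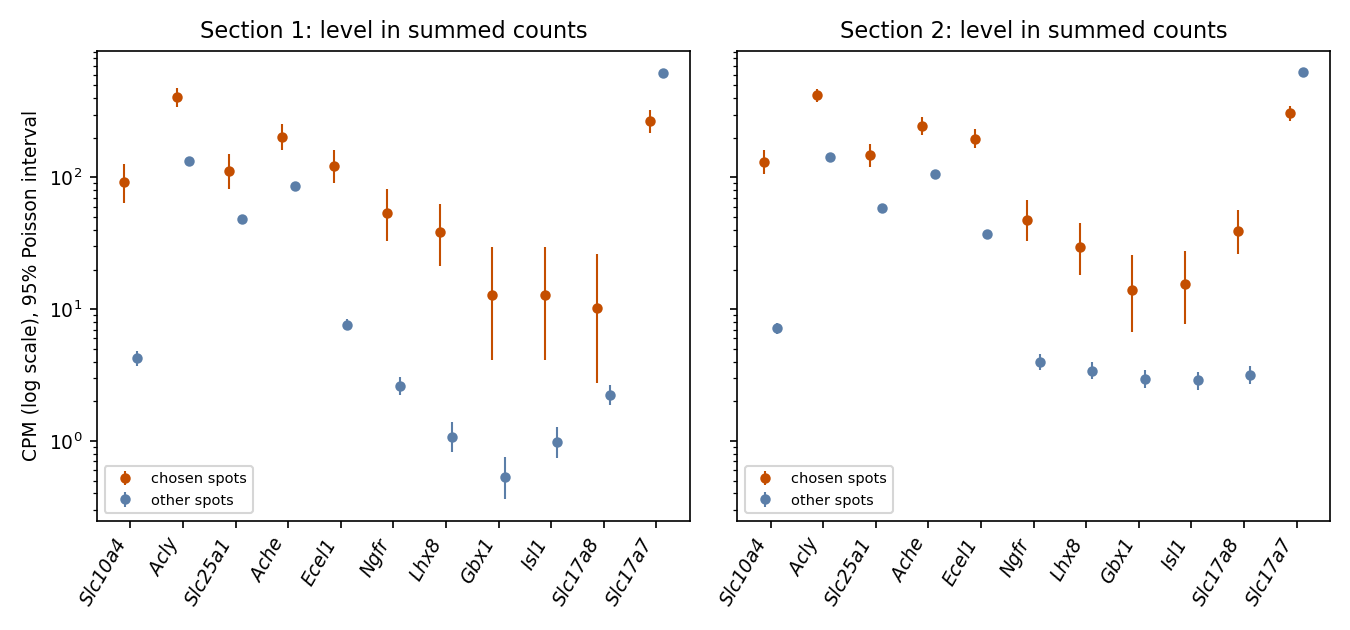
Level in CPM of summed UMIs (log scale) of 11 genes in the chosen spots (orange) and all other spots (blue) of section 1 (left) and section 2 (right); bars are exact 95% Poisson intervals, which cover counting error only. The other 10 genes lie higher in the chosen spots of both sections, and Slc17a7 lies lower at 268 against 616 and 307 against 630 CPM.

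The genes known from forebrain cholinergic neurons had the highest median change of the lists tested. This list, like the others, was selected with earlier results of these data known, so its rank is a description. Of the 9 listed, 6 were called higher and 0 lower (among them Ngfr, Lhx8, Slc17a8, Gbx1 and Isl1), with a median log2 fold change of 2.78, and DESeq2 called 6 of the list too. Ngfr, the low-affinity neurotrophin receptor, was at 53.6 CPM (21 UMIs in 14 spots) against 2.63 in section 1 and at 47.9 CPM (34 UMIs in 16 spots) against 3.99 in section 2, a log2 fold change of 3.87 ± 0.34. A UMI of Ngfr was found in 4.88% and 8.07% of the other spots.

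Lhx8, a homeodomain factor needed to form these neurons, was at 38.3 against 1.08 CPM in section 1 and at 29.6 against 3.43 in section 2 (3.78 ± 0.45; 5.02 and 3.10 by section). The homeobox genes Gbx1 and Isl1 rested on fewer UMIs. Gbx1 was at 12.8 CPM (5 UMIs) against 0.532 in section 1 and at 14.1 CPM (10 UMIs) against 2.96 in section 2. Its log2 fold change was 2.78 ± 0.68 (edgeR adjusted p = 0.00774), with 4.38 in section 1 and 2.24 in section 2. Isl1 was at 12.8 CPM (5 UMIs) against 0.979 and at 15.5 CPM (11 UMIs) against 2.88, with 2.76 ± 0.64 in all (edgeR adjusted p = 0.00357) and 3.58 and 2.41 by section. Isl1 is also known from motor neurons. The other 3 listed genes did not pass: Nkx2-1 had 1 and 4 UMIs, Zic4 had 1 and 3, and Gbx2 had 0 and 6.

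Slc17a8 encodes the vesicular glutamate transporter VGLUT3, which striatal cholinergic interneurons are known to carry. It had 4 UMIs in 4 chosen spots of section 1 (10.2 against 2.23 CPM) and 28 UMIs in 15 chosen spots of section 2 (39.5 against 3.17 CPM), with a log2 fold change of 3.30 ± 0.45. The change was larger in section 2 (3.62) than in section 1 (2.13), and that difference was not tested.

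Further called genes were named by size among those with the same sign in both sections. Ecel1, a membrane metalloprotease gene of neurons, was at 122 against 7.62 CPM in section 1 and at 197 against 37.5 in section 2, a log2 fold change of 2.87 ± 0.17 (3.96 and 2.40 by section). Tacr1, the substance P receptor that cholinergic interneurons are known to express, had 7 UMIs in section 1 (17.9 against 4.91 CPM) and 39 in section 2 (55.0 against 9.27 CPM; 2.43 ± 0.30). Sncg, the gamma-synuclein gene, which is on the neurofilament and large-axon list, rose by 1.68 ± 0.26 on the log2 scale and the vesicle GTPase gene Rab3b by 1.58 ± 0.14. The synaptic protein gene Elfn1 rose by 1.46 ± 0.26 and Tjap1 by 1.14 ± 0.32. Dlx6, a homeobox gene of forebrain GABA neurons, rose by 1.25 ± 0.35.

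Tac2, the neurokinin B gene, which the medial habenula and other forebrain neurons express, was called on the strength of section 1. It was at 105 against 14.4 CPM there and at 24.0 against 20.3 CPM in section 2 (log2 fold change 1.64 ± 0.26). Of its 41 UMIs in section 1, 9 came from a single chosen spot, and DESeq2 called 0 of the neuropeptide list, Tac2 included. Drd2, Tpbgl and Ido1 were called on section 2 alone and had the opposite sign or 0 UMIs in section 1: Drd2, the dopamine D2 receptor gene, had 3 UMIs in the chosen spots of section 1 and 45 in those of section 2.

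**Figure D3:**
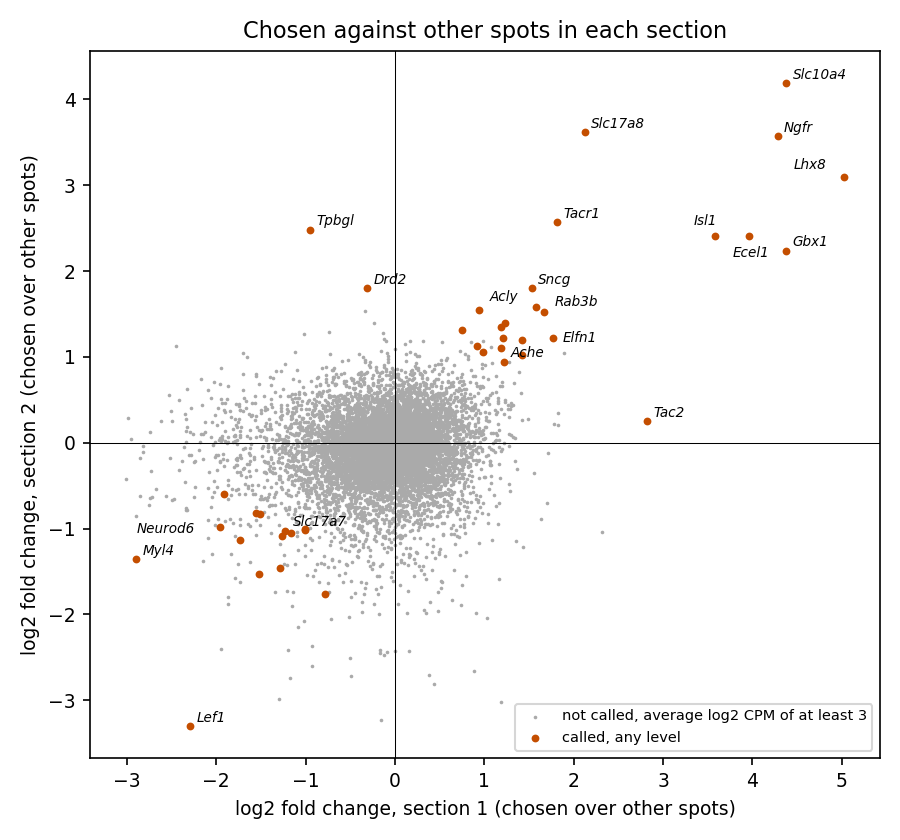
Log2 fold change of the chosen over the other spots in section 1 (horizontal) and section 2 (vertical); grey points are genes not called whose average log2 CPM was 3 or more, orange points are called genes (2 called genes are not drawn), and genes with 0 UMIs in the chosen spots of a section (Ido1 among the called) are left out. Slc10a4, Ngfr, Lhx8 and Ecel1 stand at the upper right, Tac2 lies near 0 in section 2, and Tpbgl and Drd2 lie below 0 in section 1.

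Of the 4 listed cortex and hippocampus class genes, 1 was called lower (Neurod6) and 0 higher, with a median log2 fold change of -1.07. Slc17a7, which encodes the vesicular glutamate transporter of cortex and hippocampus, was at 268 against 616 CPM in section 1 and at 307 against 630 in section 2 (log2 fold change -1.11 ± 0.10). The neuronal transcription factor genes Neurod2 (-1.29 ± 0.26), Neurod6 (-1.30 ± 0.29; -1.95 and -0.98 by section) and Bhlhe22 (-1.33 ± 0.34) were lower, as were Slc30a3, the vesicular zinc transporter gene (-1.15 ± 0.23), and Gabra5, a GABA-A receptor subunit gene (-1.40 ± 0.29). Myl4 (-1.78 ± 0.50; -2.89 and -1.36 by section) and Ccn3 (-1.53 ± 0.35) were lower as well. Lef1, a transcription factor of Wnt signalling, had 1 UMI in the chosen spots of each section, that is 2.55 CPM (Poisson interval 0.0646 to 14.2) against 12.5 in section 1 and 1.41 CPM (0.0357 to 7.85) against 14.6 in section 2. Its counting interval in section 1 reached the level of the other spots, and in section 2 it did not.

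Markers of the brainstem and habenula classes had few UMIs in the chosen spots, though not always lower levels than in the others. The brainstem class genes together were at 17.9 against 23.6 CPM in section 1 and at 5.64 against 9.19 in section 2. The habenula class genes together were at 23.0 against 31.9 and at 36.6 against 31.7 CPM. A UMI of any Hox gene on the brainstem class list was found in 0 of 40 chosen spots of each section (exact 95% binomial upper bound 8.81%). Among the other spots the shares were 4.62% and 0.241%. These shares in the other spots lie under the bound, so a difference was not detectable at this depth. Of the 12 listed motor neuron genes 6 could be tested, and 1 of them (Isl1) was called; their median log2 fold change was 0.13. Prph, the peripherin gene of neurons with long axons outside the brain, had 1 and 2 UMIs in the chosen spots, and Calca, which encodes a peptide of motor neurons, had 2 and 0. Calca was at 12.3 CPM in the other spots of section 1, against 5.10 in the chosen ones. Ret, on the same list, had 8 and 9 UMIs in the chosen spots and was not called (log2 fold change 0.30 ± 0.39). Summed over the whole list, Isl1 included, the level was 40.8 against 35.2 CPM in section 1 and 35.2 against 21.5 in section 2.

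The nicotinic subunits that mark the medial habenula were near 0. Chrna3 and Chrnb4 had 0 UMIs in the chosen spots of both sections, and Chrna5 had 0 and 1. With 3 counts as a floor, a level under 7.65 CPM in section 1 and 4.23 CPM in section 2 could not be seen in the chosen spots, and Chrna3 was at 1.15 and 2.30 CPM in the others. Of the 9 tested medial habenula genes, 1 was called higher (Tac2) and 1 lower (Slc17a7), with a median of -0.56. Of the 7 tested nicotinic subunits and the 3 tested muscarinic receptors, 0 were called in either direction by edgeR or DESeq2. An unadjusted p under 0.05 was found for 1 of these 10. With 0.184% of all tested genes called higher and 0.0952% lower, 0 calls among 10 genes say little about the receptors.

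Forebrain cholinergic genes were detected in a larger share of the chosen spots than of the others in both sections. A UMI of any forebrain cholinergic gene, Isl1 left out, was found in 24 of 40 chosen spots of section 1 (60%, exact binomial interval 43.3 to 75.1) against 27.0% of the others, and in 32 of 40 in section 2 (80%, 64.4 to 90.9) against 41.3%. When each spot was thinned to 5000 UMIs, which left out 4 and 1 chosen spots, these shares were 52.8% against 9.34% and 56.4% against 12.3%. A UMI of any motor neuron gene, Isl1 left out, was found in 25% against 37.5% and in 27.5% against 31.8%. After thinning these were 13.9% against 15.03% and 12.8% against 8.29%.

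By these 2 lists, 16 chosen spots of section 1 and 22 of section 2 held forebrain cholinergic genes alone. Motor neuron genes alone were found in 2 and 1 spots, genes of both lists in 8 and 10, and genes of neither in 14 and 7. Among the other spots, forebrain genes alone were found in 16.5% and 27.4%, motor neuron genes alone in 27.0% and 17.9%, both in 10.5% and 13.9%, and neither in 46.1% and 40.8%. Against these, the chosen spots held 40% and 55% with forebrain genes alone and 5% and 2.5% with motor neuron genes alone. These shares are at full depth, where the chosen spots were the shallower ones, and the split was not repeated after thinning. A share with motor neuron genes alone also falls where forebrain genes are detected more often. After thinning, any motor neuron gene was found in 13.9% against 15.03% in section 1 and in 12.8% against 8.29% in section 2. The 5% and 2.5% therefore do not show that motor neuron genes were rarer. The spots with neither were shallower in section 2, with a median of 11358 UMIs, than those with forebrain genes alone, with 16733.

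Sets of regional genes that name the tissue around a spot gave most chosen spots no class. A class needed at least 3 UMIs of its genes and at least 2 times the section's mean share, and the highest ratio decided. The striatum and basal forebrain class took 2 chosen spots of section 1 and 7 of section 2, the cortex and hippocampus class 0 and 2, the habenula class 0 and 1, and the brainstem class 1 and 0. The other 37 and 30 had no class. The habenula spot held 3 UMIs of habenula genes beside 43 of striatal genes, so its class goes against its leading genes. The brainstem spot, ranked 39 in section 1, was chosen on 2 UMIs of Chat with 0 of either transporter. It held 3 UMIs of Gata2, a factor of midbrain and brainstem GABA neurons, and the 9 UMIs of Tac2 given above. With under 5 spots of each class in section 1, no class was tested.

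The other spots were mostly without a class too, at 77.9% in section 1 and 79.3% in section 2, against 92.5% and 75% of the chosen spots. The striatal class held 5% and 17.5% of the chosen spots against 3.48% and 7.03% of the others. The cortical class held 0% and 5% against 12.3% and 9.27%.

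The 7 chosen spots of the striatal class in section 2 allow the cholinergic genes to be set beside 175 other spots of the same class. Slc10a4 was at 186 CPM (Poisson interval 124 to 269) against 18.3 (14.3 to 23.1), Slc17a8 at 73.1 (36.5 to 131) against 6.70 (4.38 to 9.81), and Lhx8 at 46.5 (18.7 to 95.9) against 4.38 (2.55 to 7.01). Ecel1 was at 180 against 28.3 CPM and Acly at 459 against 141. Isl1 had 0 UMIs in these 7 spots. Of the genes known from striatal projection neurons, Penk, the enkephalin gene, was lower in the 7 spots than in the 175, at 1250 (1078 to 1442) against 1686 (1646 to 1728) CPM. The intervals of Drd1, at 99.7 (55.8 to 164) against 118 (108 to 130), and of Ppp1r1b, the DARPP-32 gene, at 718 (589 to 867) against 778 (750 to 806), overlapped. Drd2, which projection neurons and cholinergic interneurons are both known to express, was at 180 (118 to 261) against 92.5 (83.2 to 103). Drd1, Drd2 and Ppp1r1b are among the genes that defined the class, so their levels in both groups depend on that choice and are description only. These are spots of 1 section, so there is no test between them. In the comparison with all other spots, by contrast, 3 of the 9 genes of this class list were called higher and 0 lower. The list together was at 250 against 204 CPM in section 1 and at 936 against 479 in section 2. Penk was higher there too, at 135 against 74.8 and at 633 against 316 CPM, without reaching 2-fold (log2 fold change 0.96 ± 0.11).

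**Figure D4:**
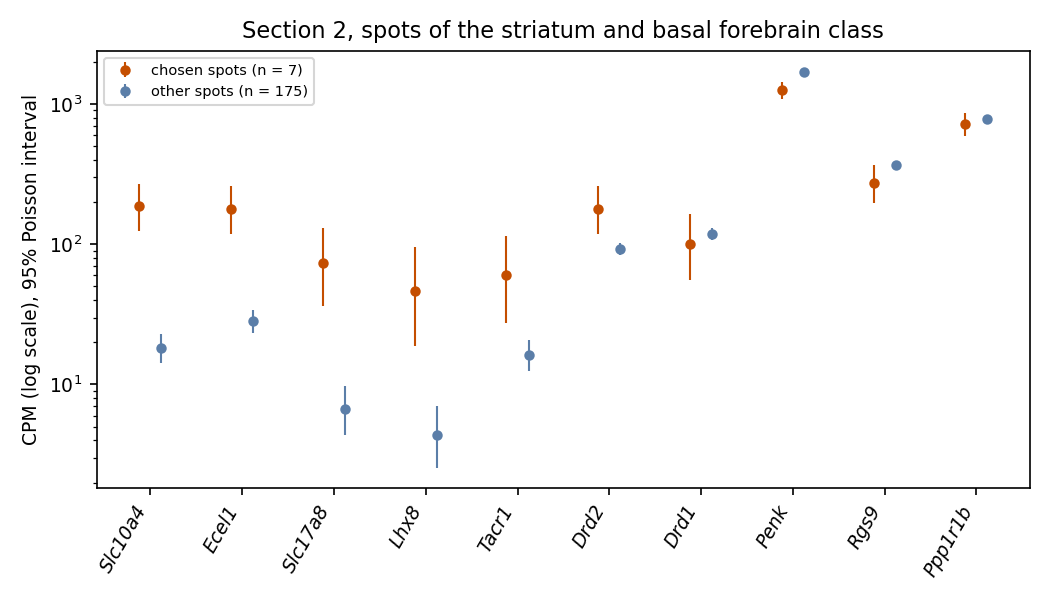
Level in CPM (log scale) of 10 genes in the 7 chosen (orange) and 175 other (blue) spots of the striatum and basal forebrain class of section 2, with exact 95% Poisson intervals. Slc10a4, Ecel1, Slc17a8, Lhx8, Tacr1 and Drd2 lie above the other spots, and Penk lies below them at 1250 against 1686 CPM. Drd1, Drd2, Rgs9 and Ppp1r1b are among the genes that defined the class.

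The chosen spots without a class carried the same genes. In section 1, the 37 such spots had Slc10a4 at 90.3 CPM, Lhx8 at 38.3 and Ngfr at 57.5, against 4.76, 1.08 and 2.88 in the 2330 other spots without a class. In section 2, the 30 had Slc10a4 at 108 CPM, Lhx8 at 21.5 and Ngfr at 50.8, against 6.90, 3.48 and 4.29. Ngfr, which is known from basal forebrain neurons more than from striatal ones, was at 19.9 CPM (3 UMIs, interval 4.11 to 58.3) in the 7 striatal spots of section 2. That interval overlaps the 33.2 to 74.5 CPM of the spots without a class, so no difference between the groups of chosen spots can be read from it.

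Slc10a4 was higher in spots with more marker UMIs. Over all kept spots of section 1, Slc10a4 was at 4.13 CPM in spots with no marker UMI, 6.40 with 1, 23.4 with 2 and 97.0 with 3 or more. In section 2 the levels were 5.67, 10.1, 18.1 and 125 CPM. Between no marker UMI and 1, the Poisson intervals overlapped in section 1 (3.61 to 4.71 and 4.10 to 9.53) and were apart in section 2 (4.999 to 6.41 and 8.03 to 12.6). Not every gene kept this order: Slc17a8 in section 1 was at 2.34, 0.801, 7.81 and 3.73 CPM, and Tac2 in section 2 was at 18.4, 29.0, 32.4 and 24.6 CPM. By rank, Slc10a4 in section 1 went from 139 CPM in ranks 1 to 20 through 51.8 in ranks 21 to 40 to 15.4 in ranks 41 to 80, and in section 2 from 171 through 90.6 to 53.4. The next 40 spots after the chosen ones in section 2 therefore still lay above the 5.67 CPM of spots without a marker UMI.

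**Figure D5:**
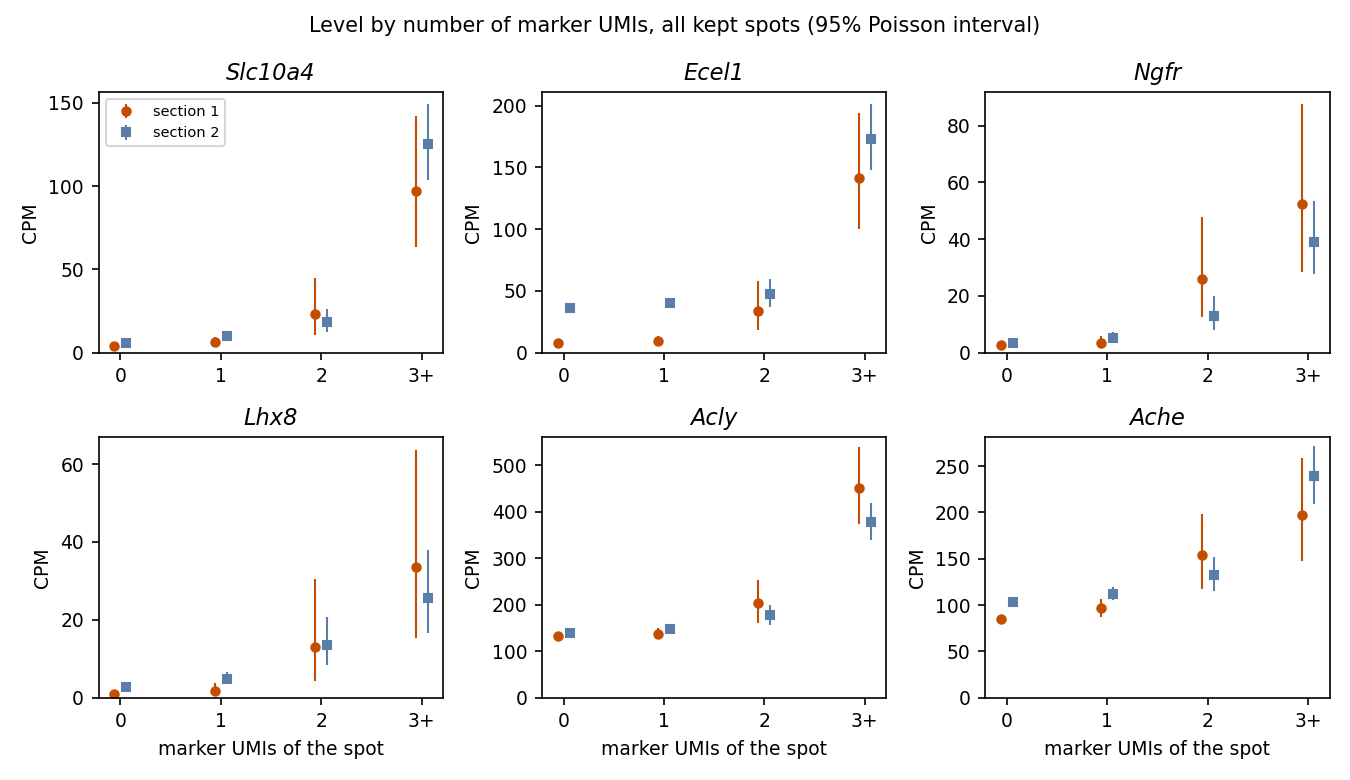
Level in CPM of 6 genes that did not enter the choice, in all kept spots grouped by their number of marker UMIs (0, 1, 2, 3 or more), for section 1 (circles) and section 2 (squares), with exact 95% Poisson intervals. Each gene is highest with 3 or more marker UMIs, as Slc10a4 is at 97.0 and 125 CPM, against 4.13 and 5.67 CPM in spots with none.

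The inhibitory neuron genes Gad2, Slc32a1 and Gad1 differed by less than 2-fold in the fit of both sections, whereas Dlx6 was called higher as given above. Gad2, a GABA-synthesizing enzyme gene, had a log2 fold change of 0.65 ± 0.11 (edgeR adjusted p = 4.82e-06), made up of 1.28 in section 1 and 0.10 in section 2. Slc32a1, the vesicular GABA transporter gene, had 0.51 ± 0.11, and Gad1 had 0.36 ± 0.10. Slc6a5, the glycine transporter gene of the brainstem, had 0 UMIs in the chosen spots. Only 8.60% and 1.32% of the other spots held a UMI of Slc6a5, and it did not pass (edgeR adjusted p = 0.537). A lower level can therefore not be read from the 0 UMIs. Of the 8 listed neurofilament and large-axon genes, 1 was called (Sncg, higher), and the heavy chain gene Nefh was at 112 against 167 and at 98.6 against 127 CPM without passing.

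Markers of other cell types were measured in the same sums. Among the astrocyte, oligodendrocyte, microglia, vascular, ependymal, meningeal, blood and monoamine neuron lists, 0 genes were called in either direction by edgeR or DESeq2. Over all tested genes edgeR called 0.184% higher and 0.0952% lower, so 0 calls among 64 genes say little about these cell types. Of the 64, 15 had an unadjusted p under 0.05, and the share of all genes at that p is not given here. By list, the median log2 fold change of the glial and vascular markers lay between -0.10 (endothelial and mural) and 0.21 (oligodendrocyte). The median of the 6 tested monoamine neuron markers was 1.07, and their summed level was 66.3 against 53.1 CPM in section 1 and 33.8 against 25.1 in section 2. The oligodendrocyte genes all had fitted values above 0, from 0.08 to 0.33, and 1 of them passed the adjusted p without reaching 2-fold. Their summed level was 13154 against 11547 CPM in section 1 and 15100 against 12185 in section 2. Their part in the results was not tested.

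Single spots set the level of 2 genes from other tissue. Ttr, the transthyretin gene of choroid plexus, was at 5299 CPM in the chosen spots of section 1 against 2330 in the others, and at 1651 without the spot that held 1441 of its UMIs. Hba-a1, a haemoglobin gene of red blood cells, was at 457 against 317 CPM in section 2 and at 213 without 1 spot. Neither gene passed the test.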

How the data were processed

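The authors deposited raw UMI counts for each gene in each spot, made with Space Ranger. Its version was 1.2.2 for section 1 and 2.0.1 for section 2, per the file headers; version 2.0.1 and the build mm10 stand in the submitters' processing notes. The version is therefore confounded with the section. The annotation release and the use of strand in counting are not given in the sources used here. A minimum of 500 UMIs left 3030 of 3167 spots of section 1 (58643229 UMIs over 32285 genes) and 2531 of 2533 of section 2 (55850965 UMIs). Of the 1952 spot barcodes found in both sections, which mark array positions, 1 was chosen in both. Doublets were not called, because spots mix cells by design.

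The section, not the spot, is the replicate, and counts were added up within each section over the chosen spots (391985 and 709693 UMIs) and over the rest. The 4 sums were fitted with edgeR 4.0.16 (R 4.3.3): quasi-likelihood F tests after TMM scaling and filterByExpr, the section as a block, and Benjamini-Hochberg adjustment. Both sums of a section come from the same tissue, which is why the section is a block. The SE is the log2 fold change over the square root of F. Levels are CPM of the sums, without TMM factors. Poisson and binomial intervals are exact, at 95%, and cover counting error only. Among called genes whose sections shared a sign and whose average log2 CPM was 3 or more, the 15 that rose most and the 8 that fell most are named, with the called members of the lists, except some that are not reported here; Ido1 and Tpbgl were named after their values were seen. The scripts were tested on simulated data. The chosen spots and all gene lists were selected with earlier results of these data known. Alternatives included DESeq2 1.42.0, other filters, numbers of spots and thinning. Promoter windows, found for 4 of 4 genes, and gene positions are RefSeq's on GRCm38.p6; spot positions were not used.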

Additional observations from a re-analysis of the deposited data

How the results depend on the processing

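Against 29 genes called higher and 15 lower, DESeq2 with its size factors called 18 and 3. Spots thinned to 5000 UMIs gave 3 (Slc10a4, Ecel1 and Acly) and 1 (Zbtb18), where fewer UMIs entered. In that setting spots under 5000 UMIs were left out, and 40 spots per section were chosen anew from the thinned counts. They held 63 and 64 marker UMIs, so they were not the same set of chosen spots. Without the replicate block (the term for the section), 3 and 0 were called. With 80 spots per section 29 were higher and 34 lower, of which 22 and 10 were among the main calls. The other settings (no filter on low counts, library sizes without TMM, 20 spots per section, a minimum of 2000 UMIs, ranking by summed UMIs, at least 2 of the 3 genes detected, and, added after seeing the data, spots with 1 marker UMI left out) called 23 to 37 higher and 11 to 19 lower, but not always the same genes. Of the 15 lower calls, ranking by summed UMIs shared 4 and 20 spots per section shared 8; of the 29 higher, these shared 24 and 20. A count of calls without a section could not be had, since 2 sums leave no residual degrees of freedom.

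Left-out Slc18a3 had a log2 fold change of 4.46 without the replicate block (adjusted p = 0.309), and left-out Chat had 4.07 to 5.07 in the single sections, on 1 and 7 UMIs. By gene, Drd2 (-0.31 in section 1, 1.80 in section 2), Tpbgl (-0.95, 2.48) and Ido1 (-2.28 from 0 UMIs, 3.51) reversed when section 2 was left out; in the other settings none of the called genes reversed, 44 of them compared, or 43 after thinning. Without section 2, 9 further genes moved by more than the SD between the sections, among them Gbx1 (4.38), Tacr1 (1.82) and Slc17a8 (2.13). With at least 5 UMIs needed for a class, the habenula and brainstem classes held 0 chosen spots and the cortex class 1; with a ratio of at least 3 the cortex class held 0. Choosing a class only among lists with enough UMIs, an alternative added after seeing the data, put 2 and 9 spots in the striatal class. Class contrasts were not run, for want of spots. Depth limits what can be said of Chat, Chrna3 and the motor neuron genes.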

Other observations

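Choosing spots the other way round, by the 9 forebrain cholinergic genes in place of the markers, gave 40 spots per section of which 12 in section 1 (30% of each list) and 18 in section 2 (45%) were among those chosen by the markers. Slc18a3 was at 77.5 CPM in them against 1.63 in the other spots of section 1, and at 75.6 against 4.73 in section 2. Slc5a7 was at 74.2 against 2.49 and at 72.8 against 4.93 CPM, and Chat had 0 and 5 UMIs. The 28 spots of section 1 that entered by these genes alone had 0 UMIs of Slc18a3 and 2 of Slc5a7, so the marker level there came from the 12 shared spots; in the 22 such spots of section 2, each of these 2 genes was at 19.1 CPM.

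Among all kept spots of section 2, a marker UMI was found in 37.4% of the 182 spots of the striatum and basal forebrain class (median 21754.5 UMIs) and in 9.87% of the 233 spots of the cortex and hippocampus class (median 26804). In section 1 the striatal class had 106 spots at a median of 9900.5 UMIs, and 4.72% of them held a marker UMI, against 8.72% of 367 cortical spots at a median of 31497.

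Gal, the gene of the neuropeptide galanin, was at 23.0 CPM in the chosen spots of section 1 (9 UMIs in 8 spots) against 1.96, and at 5.64 against 5.04 in section 2, and did not pass (log2 fold change 1.67 ± 0.58, edgeR adjusted p = 0.218).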
